A study of Caenorhabditis elegans with 10 samples.

Results

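The dod genes of C. elegans are named for acting downstream of DAF-16, and all 10 protein-coding genes whose symbol starts with dod- in the WBcel235 gene table were taken as members, of 19971 protein-coding genes on the nuclear chromosomes. For each, the peaks that overlapped the gene or lay within 1000 bp of it were collected from chromatin immunoprecipitation (ChIP-seq) peak lists of CEH-60, a PBX-type homeodomain protein, UNC-62 (isoform 7a), a MEIS-type homeodomain protein, and PQM-1, a zinc finger protein. Each of the 8 lists came from 1 immunoprecipitated library of whole animals at day 1 of adulthood, and 2 input libraries were not analysed here. CEH-60 was recovered with an antibody to HA from strain DLS395, genotype ceh-60(rhd116), with antibody 3F10 in replicates 1 and 2 and with antibody mIgG1 in a further library. Strain DLS396, ceh-60(rhd116); gaIs285, gave a CEH-60 list (3F10), and antibody 3E6 against GFP gave the UNC-62 list from it. PQM-1 was recovered with an antibody to FLAG (M2) from OP201, unc-119(tm4063); wgIs201, and from DLS422, ceh-60(ok1485); wgIs201. CEH-60 (3F10) was also recovered from DLS435, pqm-1(ok485); ceh-60(rhd116). All CEH-60 and UNC-62 libraries therefore came from animals with rhd116, and both PQM-1 libraries from animals with the transgene wgIs201, so UNC-62 and PQM-1 binding is that of transgene products.

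Crosslinking of both DLS396 libraries, the mIgG1 library and CEH-60 replicate 1 was with 2% formaldehyde for 30 min (protocol 1). It was with 1% formaldehyde for 5 min (protocol 2) for OP201, DLS422, DLS435 and CEH-60 replicate 2. Animals of protocol 1 were grown at 20 °C for 72 h, and for protocol 2 growth temperature and time were not stated. The protocols also differed in the shearing instrument. Only CEH-60 with 3F10 in DLS395 had 2 libraries, and these differed in protocol, so no difference below has a replicate check and no test was run. Read depth is unknown, and the lists held from 2048 peaks (CEH-60 in DLS435) to 9010 (CEH-60 replicate 1). Each peak carries the authors' fold enrichment of its summit over local background, which ranks the peaks of one list here and is read across lists nowhere.

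DAF-16 is the FOXO transcription factor of the worm. Signalling through the insulin receptor DAF-2 and the kinases AKT-1 and AKT-2 keeps it out of the nucleus, and reduced signalling lets it enter and change transcription, which lengthens lifespan. Genes that change with it are known in one class that is raised when DAF-2 signalling is reduced, to which dod-3 and dod-6 belong, and one that is lowered, to which dod-17 to dod-24 belong. PQM-1 is known to bind the GATA-like DAF-16 associated element, which is common in promoters of the lowered class. Several genes of that class (dod-17, dod-21, dod-22 and dod-24) encode secreted proteins with a CUB-like domain, and such genes respond to bacterial infection.

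All 10 dod genes lay near a peak in CEH-60 replicate 1, where 33.2% of all protein-coding genes did. All 10 also lay near a CEH-60 peak in DLS396 (33.3% of all genes) and near a PQM-1 peak in OP201 (21.2%). PQM-1 in DLS422, without ceh-60, had a peak near 8 of 10 (16.9%). The shorter lists held fewer members. CEH-60 replicate 2 had 6 of 10 (13.3%), mIgG1 had 4 (18.4%), CEH-60 in DLS435 had 4 (7.63%) and UNC-62 had 3 (8.58%). Every dod gene was near a peak in at least 3 lists, as were 25.6% of all genes. The dod genes were shorter than most, with a median of 1287.5 bp against 2006 bp, and a window around a short gene covers less sequence.

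**Figure D1:**
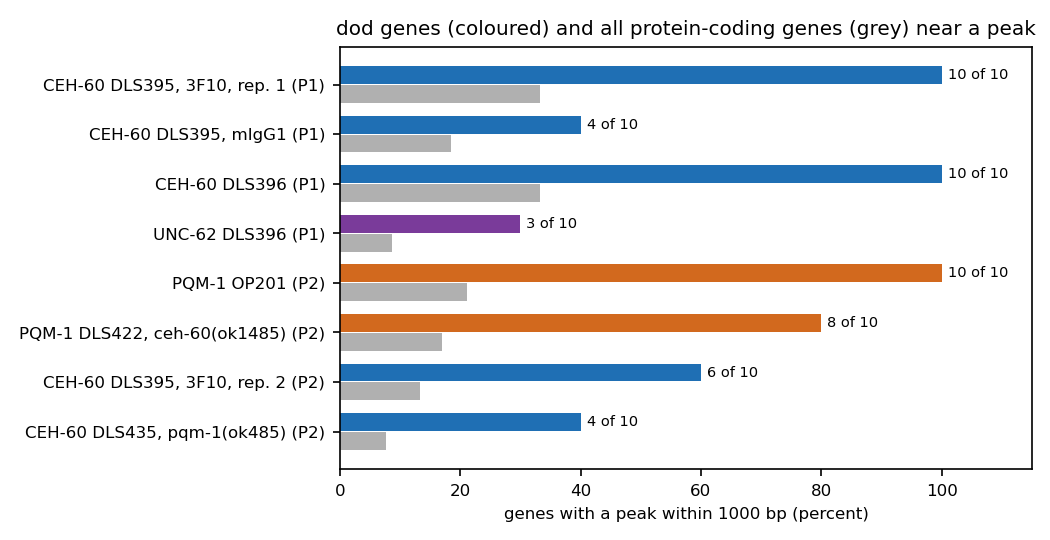
Percent of genes with a peak within 1000 bp (horizontal axis) in each of the 8 lists, for the 10 dod genes (coloured by factor, count at the bar end) and for 19971 protein-coding genes (grey); P1 and P2 are the long and short crosslinking protocols. The coloured bar is longer than the grey bar in all 8 lists, and it reaches 10 of 10 in 3 of them.

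The lists differ in length, so members were also counted among the 2048 nuclear peaks of highest fold in each list. On this footing CEH-60 replicate 1 had 4 dod genes near a peak (10.1% of all genes) and CEH-60 in DLS396 had 3 (9.92%), both of protocol 1. In protocol 2, CEH-60 had 5 in replicate 2 (9.12%) and 4 in DLS435 (7.63%), and PQM-1 had 7 in OP201 (10.5%) and 8 in DLS422 (9.61%). The dod genes near one of the strongest CEH-60 peaks of replicate 1 were dod-3, dod-6, dod-19 and dod-23.

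The median fold of the strongest peak near each member was 5.34 in CEH-60 replicate 1, against 5.28 over the 6638 genes near a peak of that list. For PQM-1 it was 2.79 against 2.64 in OP201 and 2.93 against 2.56 in DLS422. Over the 3 members near an UNC-62 peak it was 5.88 against 4.35, and over the 4 near a mIgG1 peak 5.23 against 4.53. Each list's whole range of folds is shown in the box plot. Single genes stood higher: dod-23 had the strongest dod peak in all 6 lists of CEH-60 and UNC-62, and dod-21 had it in both PQM-1 lists.

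**Figure D2:**
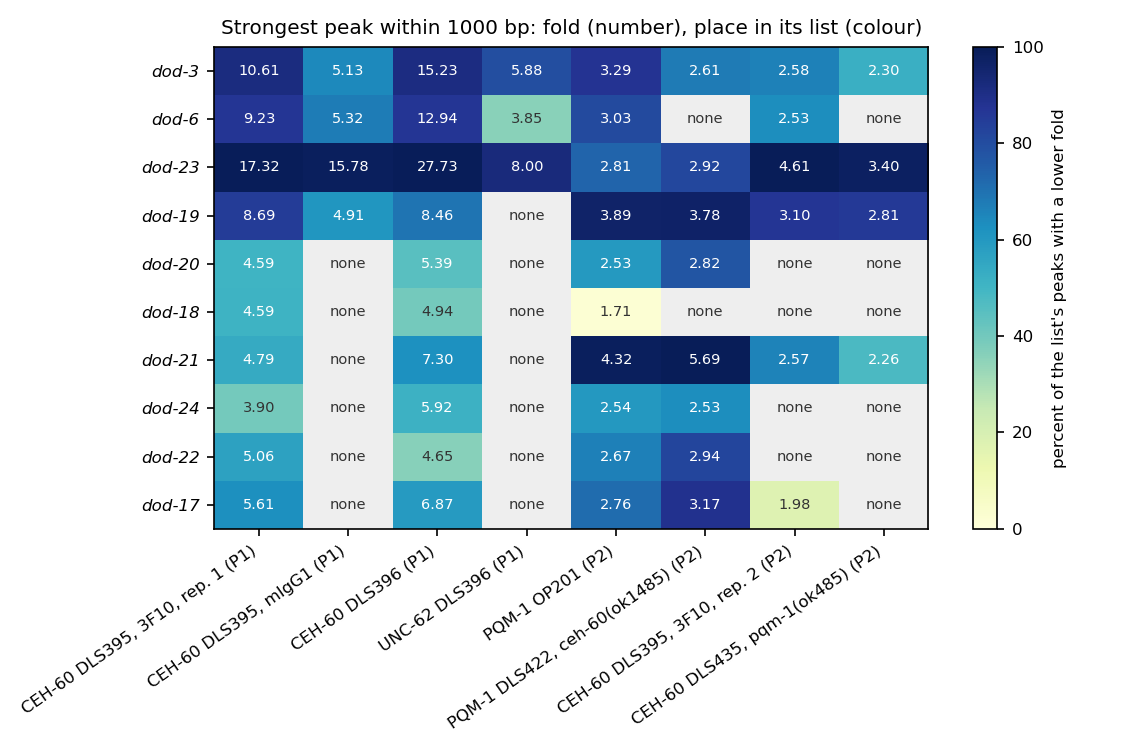
Fold of the strongest peak within 1000 bp of each dod gene (rows) in each list (columns), with "none" where no peak was listed; colour gives the percent of that list's peaks with a lower fold, and depends on how long that list is. dod-3 and dod-23 have a value in every column, and dod-18 has a value in 3 columns.

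**Figure D3:**
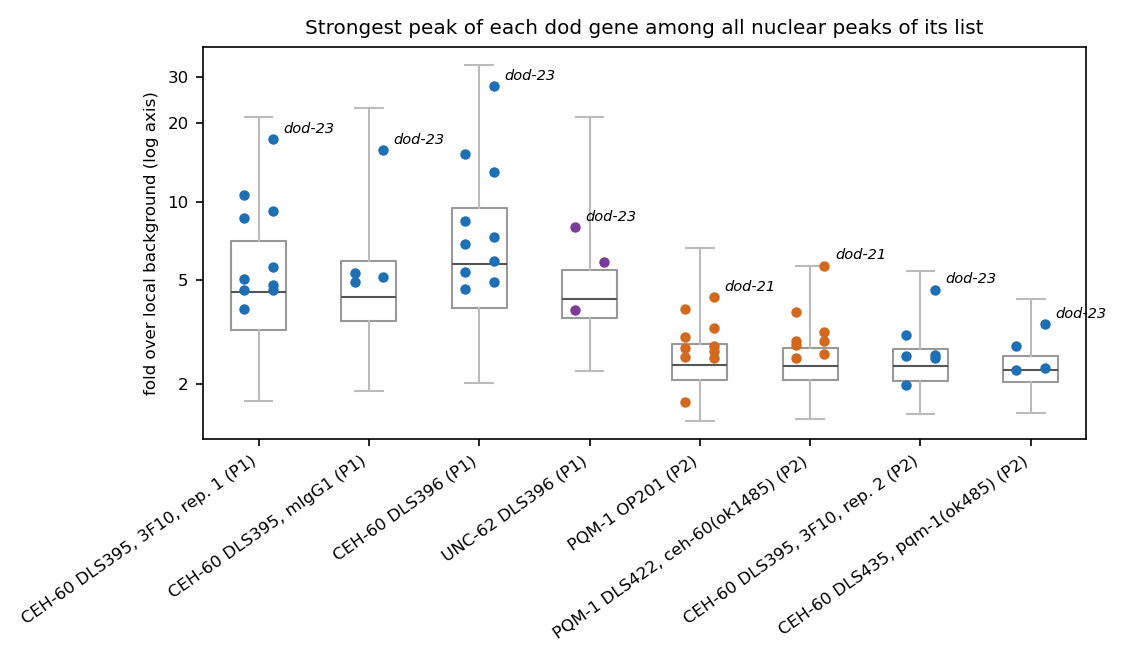
Fold of the strongest peak of each dod gene (points, coloured by factor) over the fold of all nuclear peaks of the same list (box, quartiles and median; whiskers, lowest and highest peak), on a log axis. The dod-23 point leads the 6 lists of CEH-60 and UNC-62, and the dod-21 point leads both PQM-1 lists, with 5.69 the highest fold of the DLS422 list.

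The raised-class gene dod-3 (CELE_C24B9.9) was near a peak in every list. In protocol 1 its folds were 10.61 in CEH-60 replicate 1, 5.13 with mIgG1, 5.88 for UNC-62 and 15.23 in the DLS396 list of CEH-60. In protocol 2 CEH-60 had folds of 2.58 in replicate 2 and 2.30 in DLS435, and PQM-1 had 3.29 in OP201 and 2.61 in DLS422. The 3 factors met at one place, since all 8 summits fell within 88 bp, between V 2731232 and V 2731320. They lay between dod-3 and the chemoreceptor gene srg-57, at 134 to 222 bp from dod-3. In all 8 lists the peak was also near srg-57 and near str-33, on the other side of dod-3. The CEH-60 peak of replicate 1 (V 2730913 to 2731505) ranked 756 among 9008, and the UNC-62 peak (V 2731144 to 2731445) ranked 414 among 2051. Coordinates are those of the deposited lists, 1-based, in a genome build that was not given in the sources used here.

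In the raised class, dod-6 (CELE_T20G5.7) was near a peak in 6 lists and in neither the list from ceh-60(ok1485) nor the list from pqm-1(ok485) animals. Its folds were 9.23 in CEH-60 replicate 1, 2.53 in CEH-60 replicate 2, 5.32 with mIgG1, 12.94 for CEH-60 in DLS396, 3.85 for UNC-62 and, with PQM-1, 3.03 in OP201. The summits of these 6 lists spanned 144 bp, from III 10196863 to III 10197007, at 709 to 853 bp from dod-6 on the side of epac-1. No other protein-coding gene lay within 1000 bp of these peaks on that side, and epac-1 ended 2311 bp from dod-6. The nearest peak of PQM-1 in DLS422 was 106861 bp away and that of CEH-60 in DLS435 was 117386 bp away.

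Among the lowered-class genes, dod-23 (CELE_F49E12.2) had the highest CEH-60 folds. They were 17.32 in replicate 1 (rank 42 of 9008), 15.78 with mIgG1 (rank 52 of 4429), 27.73 in DLS396 (rank 40 of 8991), 4.61 in replicate 2 (rank 12 of 3430) and 3.40 in DLS435 (rank 47 of 2048). UNC-62 had 8.0 there (rank 155 of 2051), and its peak ran from II 8399102 to 8399427. The strongest CEH-60 and UNC-62 summits lay between II 8399239 and II 8399299, just past the end of dod-23 on the side of the peroxidase gene skpo-1. In replicate 1 a single peak of 2808 bp (II 8397742 to 8400549) covered dod-23 whole and ran into skpo-1. CEH-60 in DLS396 had a further peak on the other side of dod-23 (II 8397745 to 8398234, fold 6.18). Its summit lay 120 bp from the gene.

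PQM-1 was at both ends of the interval between dod-23 and skpo-1. In OP201 a peak of 2.51 had its summit at II 8399272, 18 bp from that of CEH-60 replicate 1, and a peak of 2.81 had its summit at II 8400154. In DLS422 the upper peak had a fold of 2.92 with its summit at II 8400197. The lower one had a fold of 2.16 and a summit at II 8399523, 251 bp from the OP201 summit and 233 bp from that of CEH-60. The mIgG1, UNC-62 and DLS435 lists also had a second peak near the upper place, with folds of 5.81, 4.02 and 2.16.

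Like dod-23, dod-19 (CELE_ZK6.10) was near a peak in all 5 CEH-60 lists and both PQM-1 lists, but it had no UNC-62 peak. Its CEH-60 folds were 8.69 in replicate 1, 3.10 in replicate 2, 4.91 with mIgG1, 8.46 in DLS396 and 2.81 in DLS435. PQM-1 had folds of 3.89 in OP201 and 3.78 in DLS422. The 7 summits lay within 43 bp (V 414846 to 414889), 86 to 129 bp from dod-19 on the side of the infection response gene irg-8. The place was among the stronger ones for PQM-1, at rank 225 of 6001 in OP201 and 170 of 5020 in DLS422. The nearest UNC-62 peak was 25980 bp away.

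**Figure D4:**
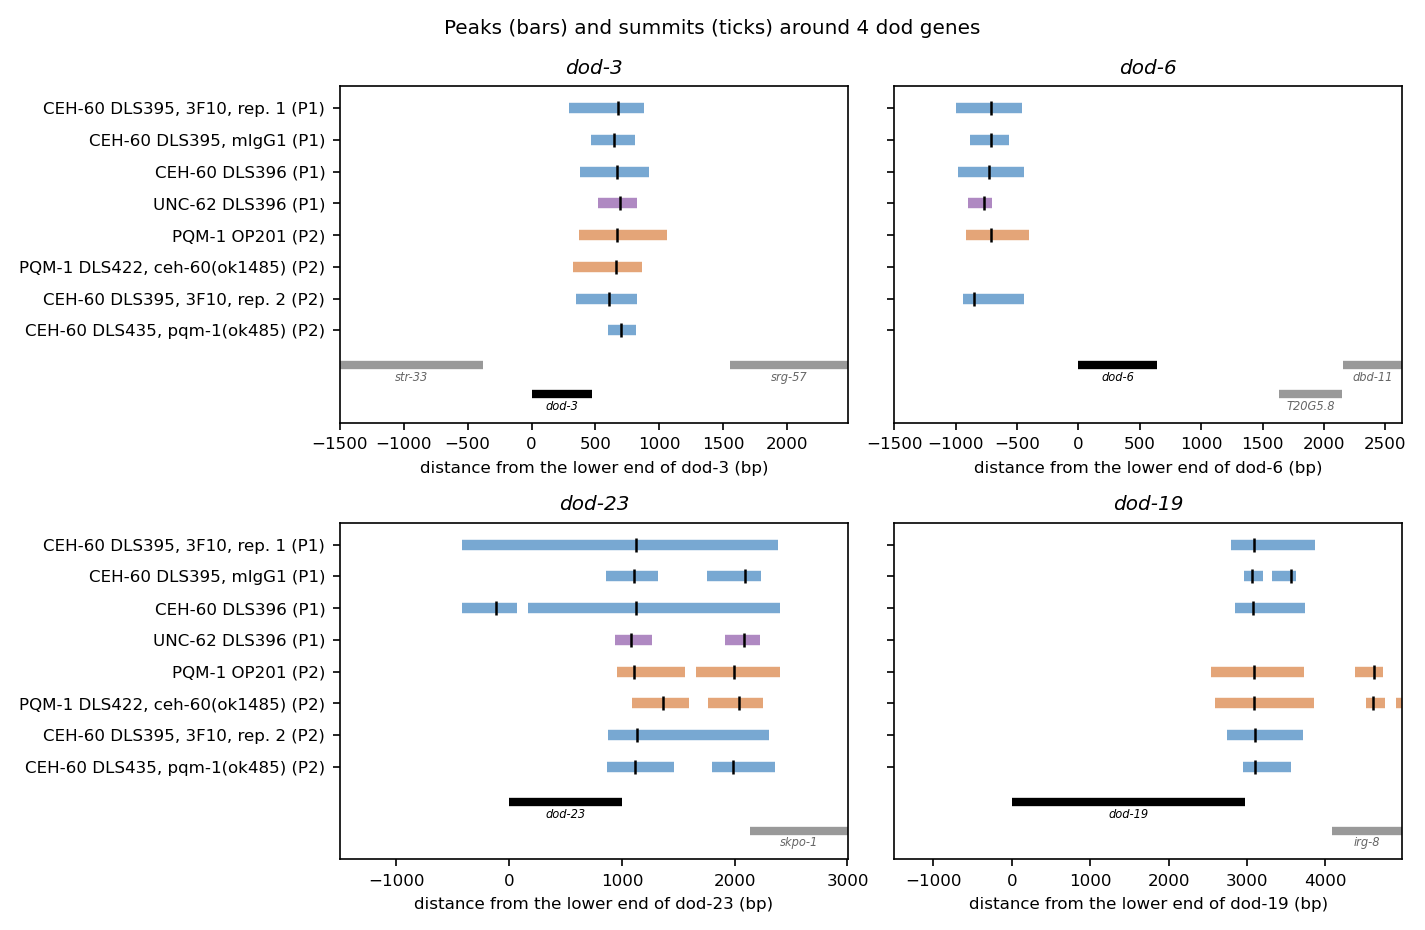
Peaks (bars, coloured by factor) and summits (ticks) of the 8 lists around dod-3, dod-6, dod-23 and dod-19, by distance in bp from the end of each gene with the lower coordinate; black bars below are dod genes and grey bars other protein-coding genes. Summits stack within 88 bp at dod-3 and 43 bp at dod-19, and the rows of DLS422 and DLS435 are empty at dod-6. At dod-23, 2 places are seen on the side of skpo-1, and CEH-60 in DLS396 has a further peak on the other side.

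Further along chromosome V, dod-20 (CELE_B0554.6) was near peaks of the longer lists and of PQM-1. It had folds of 4.59 in CEH-60 replicate 1 (V 421889 to 422529), 5.39 for CEH-60 in DLS396, 2.53 for PQM-1 in OP201 and 2.82 in DLS422. These summits spanned 143 bp. Both long CEH-60 lists had a further peak inside dod-20, with folds of 3.97 and 4.55, and this was the one member with a CEH-60 summit inside the gene.

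The gene dod-18 (CELE_C54G4.6), on chromosome I, was near peaks in 3 lists. CEH-60 had folds near the middle of its lists, 4.59 in replicate 1 (rank 4414 of 9008) and 4.94 in DLS396 (rank 5409 of 8991). The PQM-1 peak in OP201 had a fold of 1.71, at rank 5903 of 6001. The 3 summits lay inside the neighbouring gene rskn-2, which encodes a kinase of the ribosomal S6 kinase family. The peaks were also near C54G4.7, which overlaps dod-18, so they cannot be given to 1 gene.

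The remaining members, dod-21, dod-24, dod-22 and dod-17, lie in a stretch of 41.6 kb on chromosome IV with 9 other protein-coding genes. PQM-1 peaks were near all 4 in OP201 and in DLS422, and UNC-62 had no peak in the stretch. With mIgG1 the stretch held 1 peak, near none of the 4. CEH-60 peaks of replicate 1 and of DLS396 were near all 4, those of replicate 2 were near dod-21 and dod-17, and that of DLS435 was near dod-21.

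At dod-21 (CELE_C32H11.10) PQM-1 had the highest fold of its whole DLS422 list, 5.69 at IV 12936241 to 12936779, rank 1 of 5020. In OP201 the fold there was 4.32 at IV 12936280 to 12936764, rank 77 of 6001. Ranks from lists of different length, with 1 library a strain, cannot show whether binding there changed between the strains. CEH-60 peaks at the same place were of middling height, with folds of 4.79 in replicate 1 (rank 4146 of 9008), 7.30 in DLS396, 2.57 in replicate 2 and 2.26 in DLS435. The summits of these 6 lists lay within 35 bp, from IV 12936559 to IV 12936594. They fell between dod-21 and cld-1, at 144 to 179 bp from dod-21, and all 6 peaks were near cld-1 as well.

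The other members of the stretch had lower PQM-1 folds than dod-21 in both lists. At dod-17 (CELE_K10D11.1) the strongest peaks had folds of 5.61 in CEH-60 replicate 1, 6.87 in DLS396, 2.76 for PQM-1 in OP201, 3.17 in DLS422 and 1.98 in CEH-60 replicate 2. Their summits spanned 71 bp on the side of K10D11.2, and a further peak lay at the other end of dod-17 in 4 of these lists. At dod-22 (CELE_F55G11.5) the folds were 5.06 in CEH-60 replicate 1, 4.65 in DLS396, 2.67 for PQM-1 in OP201 and 2.94 in DLS422, with summits within 51 bp. At dod-24 (CELE_C32H11.12) they were 3.90, 5.92, 2.54 and 2.53 in the same order, in the interval shared with dct-19.

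Peaks in the stretch were not confined to dod genes. Of the 9 other genes, 6 were near a CEH-60 peak in replicate 1 and in DLS396, and 5 were near a PQM-1 peak in OP201 and in DLS422. Within the stretch, the highest fold of CEH-60 replicate 1 was 6.64 (IV 12962464 to 12962931), near F55G11.7 and F55G11.8 and near no dod gene.

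**Figure D5:**
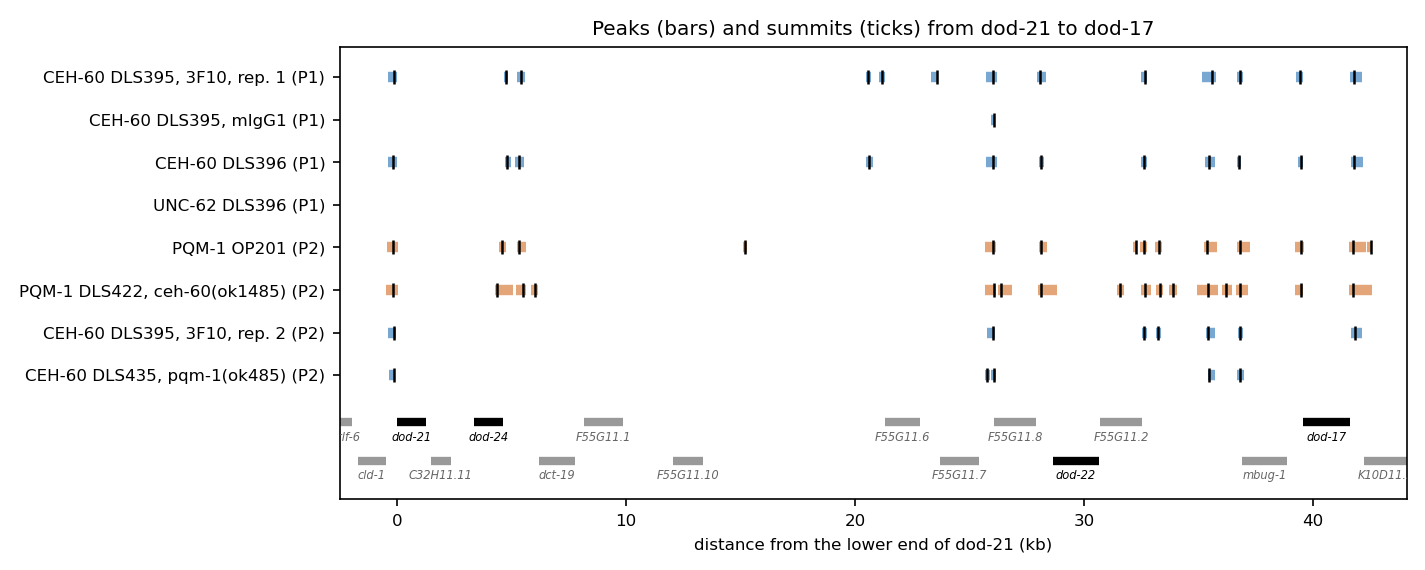
Peaks (bars, coloured by factor) and summits (ticks) of the 8 lists from dod-21 to dod-17, by distance in kb from the end of dod-21 with the lower coordinate; black bars below are dod genes and grey bars other protein-coding genes. The UNC-62 row is empty, the mIgG1 row holds 1 peak, and both PQM-1 rows have peaks near all 4 dod genes.

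Over the 8 lists, 74 member peaks were found, and 0 of them were near 2 dod genes. The strongest peak of each member in each list, 55 in all, had its summit outside the gene in 55 of 55 cases. Over all genes near a peak of CEH-60 replicate 1, 68.6% had the strongest summit outside the gene, and in OP201 74.3% did. Flanks made up 57.6% of the bases searched for the dod genes, against 38.6% for all genes. Of the 74 peaks, 63 were also near another protein-coding gene, so binding between 2 genes is not assigned to either. The same share over all peaks was not counted. At the edge of the window, the farthest peak counted was 912 bp from dod-23 (UNC-62), and the nearest one left out was 1223 bp from dod-24 (PQM-1 in DLS422).

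The question of where PQM-1 peaks depend on CEH-60 is addressed by OP201 and DLS422. Both PQM-1 lists had a peak near 8 dod genes (15.7% of all genes), and 2, dod-6 and dod-18, had one in OP201 and none in DLS422 (5.49% of all genes). Of 14 OP201 member peaks, 12 were overlapped by a DLS422 peak, against 67.9% of all OP201 peaks. The unmatched ones were those of dod-6 (III 10196803 to 10197311) and dod-18 (I 8018995 to 8019202).

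These unmatched peaks were of different kinds. With the OP201 list cut by fold into 5 groups of like size, the dod-18 peak was in the weakest group, where 38.9% of peaks had a match in DLS422. The dod-6 peak was in the strongest group, near its lower edge at rank 1138 of 6001. In the strongest group 98.0% of peaks had a match, and in the next group 86.0% did. The dod-6 peak was 1 of 24 without a match among the 1200 peaks of the strongest group. Of these 24, 13, the dod-6 peak among them, were overlapped by a CEH-60 peak of replicate 2, against 86.9% of the 1200. In DLS422 no peak lay within 100 kb of dod-6, while OP201 had 3 there. In the other direction, 11 of 12 DLS422 member peaks were overlapped by an OP201 peak, against 83.4% of all DLS422 peaks, and the other lay inside F55G11.2 near dod-22 (fold 2.17). Each strain gave 1 library, and OP201 also carries unc-119(tm4063), which the DLS422 label does not list.

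CEH-60 with and without pqm-1 was compared in the same way. Both lists had a peak near dod-3, dod-19, dod-21 and dod-23. The share of all genes near a peak of both was not counted, and it cannot exceed the 7.63% near a DLS435 peak. The genes dod-6 and dod-17 had a peak in replicate 2 and none in DLS435 (5.93% of all genes). Of 6 replicate 2 member peaks, 4 were overlapped by a DLS435 peak, against 52.2% of all replicate 2 peaks. The unmatched dod-6 peak (fold 2.53) was in group 4 of 5 by fold, counted from the weakest, where 67.9% of peaks had a match. That of dod-17 (1.98) was in the weakest group, where 23.2% did. The DLS435 list is the shortest, with 2048 peaks against 3430 in replicate 2.

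CEH-60 and PQM-1 lists of protocol 2 met at 7 of 14 OP201 member peaks, which a CEH-60 replicate 2 peak overlapped, against 44.9% of all OP201 peaks. From the CEH-60 side all 6 replicate 2 member peaks were overlapped by PQM-1 in OP201, as were 83.9% of all replicate 2 peaks. The summits of the strongest peaks were a median of 66.5 bp apart over 6 genes and 855 bp apart at dod-23, where PQM-1 was stronger at the upper place. All 3 factors together (CEH-60 and UNC-62 in DLS396, PQM-1 in OP201) were near dod-3, dod-6 and dod-23, 3 of 10 genes, where 7.7% of all genes were. The 4 UNC-62 member peaks were each overlapped by a CEH-60 peak of DLS396, as were 98.7% of all UNC-62 peaks, with the strongest summits 21 to 46 bp apart.

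Member peaks of the shorter CEH-60 lists were found again in the longer ones. All 6 member peaks of replicate 2 were overlapped by a replicate 1 peak (97.3% of all replicate 2 peaks), and 6 of 10 dod genes were near a peak in both replicates (13.2% of all genes). Of the 13 member peaks of replicate 1, 6 were overlapped by replicate 2 (33.4% of all replicate 1 peaks) and 4 by mIgG1 (45.3%). All 6 mIgG1 member peaks overlapped a replicate 1 peak (99.1% of all mIgG1 peaks), and all 14 of DLS396 did (90.3%), with the strongest summits in DLS396 a median of 37.5 bp from those of replicate 1. Of the 10 members, 2 (dod-3 and dod-23) were near a peak in all 8 lists, against 4.84% of all genes.

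Genes of the insulin and DAF-16 pathway were examined beside the dod genes. Of 18 genes of insulin signalling and its transcription factors, 13 were near a CEH-60 peak in replicate 1 (33.2% of all genes), 9 near a PQM-1 peak in OP201 (21.2% of all genes) and 4 near an UNC-62 peak (8.58% of all genes). daf-16 itself was near a peak in every list, with folds of 7.57 for UNC-62, 12.91 in CEH-60 replicate 1 and, with PQM-1, 3.91 in OP201 and 3.28 in DLS422. The transcription factor gene skn-1 was also near one in every list (11.44 in CEH-60 replicate 1). The kinase gene sgk-1 was in 7 lists (10.47), as was the 14-3-3 gene par-5 (5.38), and the phosphatase regulator gene smk-1 (6.03) and akt-1 (3.19) were in 6 each. No list had a peak near age-1, which encodes the PI3 kinase, or hsf-1, the heat shock factor gene.

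Of 26 further genes known to change with DAF-16, 16 were near a CEH-60 peak in replicate 1, 14 near a PQM-1 peak in OP201, 10 near one in DLS422 and 7 near an UNC-62 peak. The shares of all genes in these lists were 33.2%, 21.2%, 16.9% and 8.58%, in that order. The lysozyme gene lys-8, the insulin-like peptide gene ins-7, the nuclease gene nuc-1, the peptide transporter gene pept-1 and scl-1 were near a peak in every list. Their folds in CEH-60 replicate 1 were 14.18, 15.01, 10.81, 12.27 and 9.31, in that order. The yolk protein gene vit-5 was in 7 lists and had none in DLS422. No list had a peak near the superoxide dismutase gene sod-3 or the catalase genes ctl-1 and ctl-2.

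For each dod gene the most similar gene elsewhere was sought by the Euclidean distance, over the 8 lists, between within-list percentiles of fold (0 where there was no peak). The gene most like dod-23 was fat-2, a fatty acid desaturase gene, at 7.78 percentile points, with folds of 17.9 in CEH-60 replicate 1 and 11.12 for UNC-62. The gene most like dod-22 was irg-5, an infection response gene, at 7.12 points, and the gene most like dod-17 was dct-17, at 10.1. Those most like dod-3, dod-19 and dod-21 were plc-3 (18.6), cpr-1 (15.8) and wht-1 (19.3). For dod-6 there was no closer match than let-522 (25.6), which, unlike dod-6, had a PQM-1 peak in DLS422 (fold 2.01). The combination of lists seen at dod-6 was shared by 51 genes, itself included, or 0.255% of all genes, and that of dod-3 and dod-23 by 966.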

How the data were processed

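Peak lists of 8 immunoprecipitated libraries were used as deposited, with strain, antibody and replicate taken from the labels. Bowtie2, SAMtools, MACS2 and deepTools were used, per the submitters' processing notes. Genome build, control library and duplicate handling were not given in the sources used here. Every list is assigned to 1 sample. The deposited lists give each peak a fold, a ratio of its summit to the local background, with the −log10 p-value and the −log10 q-value of the summit. The deposited score is 10 times the −log10 q-value and was not used. Per the labels' protocols, libraries of protocol 1 were sheared with a Bioruptor and those of protocol 2 with a Covaris instrument.

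Analyses used Python 3.11.15, numpy 2.4.6, pandas 2.3.3 and matplotlib 3.10.9, on nuclear chromosomes. Genes and their neighbours came from a WBcel235 table that gives no strand, so "within 1000 bp" counts both sides. To test whether table and lists share a frame, genes were shifted against summits, and the best shift over 14 sets of chromosomes or lists was 0 to 30 bp. Each shift is an average over its set, so it does not bound a difference between table and lists at a single gene. Sharing 1 bp counted as overlap of peaks, and functions were checked on simulated peaks. The members, related genes and alternatives were chosen with earlier results of these data known. Named are all members, their neighbours, up to 6 related genes of a list with most lists and up to 3 with none, and the gene most like a member, some of which are not reported here. Counts of members and related genes are set beside all protein-coding genes, and no test was run. The planned motif count in promoters was not run, since no sequence was used here.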

Additional observations from a re-analysis of the deposited data

How the results depend on the processing

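Of 91 values recomputed, 75 stayed within 1.5 times the main count. A window of 2000 bp, a stricter −log10 q of 5, the summit in place of the peak and, chosen after seeing the data, summits at gene ends left every member count within that limit. Counting only peaks that overlap the gene gave 5 members for CEH-60 replicate 1 (20.3% of all genes) and 5 for CEH-60 in DLS396 (20.0%). It gave 3 for replicate 2 (7.73%), 3 for mIgG1 (10.2%), 2 for DLS435 (4.27%) and 1 for UNC-62 (4.38%). PQM-1 had 7 in OP201 (12.5%) and 7 in DLS422 (10.1%). By this rule 0 members had a peak of all lists, and that share was not counted over all genes. Fewer peaks then counted as member peaks, and those shared were 3 of 3 for replicate 2 with replicate 1, 3 of 3 for mIgG1, 6 of 6 for DLS396 with replicate 1 and 1 of 1 for UNC-62 with CEH-60. With 2048 peaks from each list, CEH-60 replicate 1 had 4 members (10.1% of all genes) and CEH-60 in DLS396 had 3 (9.92%). With an overlap of 50% of both peaks, 2 of 6 mIgG1 peaks, 1 of 4 UNC-62 peaks and 2 of 6 peaks of replicate 2 with DLS435 were shared. By construction, windows and rules with fewer bases or peaks cannot give more members, though they may give as many. With 2048 peaks, PQM-1 in DLS422 kept 8 members and mIgG1 kept 4. The 50% overlap cannot be met where lengths differ much, as at dod-23 with 467 bp for mIgG1 against 2808 bp in replicate 1. Other causes were not tested. Leaving out 1 replicate of CEH-60 in DLS395 gave 6 to 10 members in place of 6. No paired analysis was possible because no test was run and the groups share fewer than 2 replicate numbers. The dod-18 peak of PQM-1 in OP201 did not pass the stricter q. Depth limits absence: a gene with no peak in a short list may be bound below its threshold.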
